A study of Mus musculus with 6 samples.

Results

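The glycolytic enzymes and the genes that respond to the hypoxia-inducible factors (HIF) were followed as a group of 33 genes. They were chosen by name and run from the HIF subunits to lactate export. Only probe sets that name 1 gene were tested, which left out 1 probe set of Hk1 that also names another gene. Of the 33, 29 were measured on a probe set bright enough to test, among 12726 tested genes, and each was represented by its brightest probe set. The signals of Gpi1 and Eno1 were not analysed here, Bnip3l was left out because its probe sets also carry the name of another gene, and Gapdh was followed only on Affymetrix control probe sets.

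The arrays held primary chondrocytes of newborn mice, 3 arrays of Slc39a13-KO cells and 3 of wild-type (WT) cells, with no other treatment in either group. Slc39a13 encodes a zinc transporter of the ZIP family. In the KO mice a neomycin cassette took the place of several exons of the gene in the germ line. The cells were released from the rib cages with collagenase, strained and cultured without a sort, and nothing states whether the arrays of a group came from separate animals or cultures, so p-values cover only the spread from array to array.

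HIF is a dimer whose alpha subunit is hydroxylated by oxygen-dependent prolyl hydroxylases and then destroyed, so that it accumulates where oxygen is low. It then raises the genes for glucose uptake, for nearly every step from glucose to lactate, and for its own hydroxylases. Growth cartilage has no blood vessels, and its chondrocytes live at low oxygen and rely on glycolysis. The cells here were grown in culture at an oxygen level that is not stated, and the arrays measured RNA and no HIF protein.

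In KO cells the median member was slightly lower, and the members that passed the test went both ways. Triose phosphate isomerase (Tpi1), the prolyl hydroxylase Egln3 and the liver-type phosphofructokinase Pfkl fell. The HIF subunit Hif1a and the muscle-type phosphofructokinase Pfkm rose. The other 24 members did not pass the test, a limma comparison at an adjusted p of 0.05, the adjustment (Benjamini-Hochberg) running over the 12726 genes. The 5 called members were 17.2% of those tested, where 9.29% of all genes were called. By direction, 6.90% of the members rose and 10.3% fell, against 4.64% and 4.65% of all genes (590 and 592). With each array centred on its median the counts over all genes were 106 and 228, and the median of all genes was -0.08.

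Of the 29 members, 21 had a negative and 8 a positive difference, KO minus WT, and the median was -0.21 on the log2 scale, against 0.01 over all tested genes. The median member stood at -0.15, -0.20 and -0.13 on KO arrays 1 to 3, relative to the WT mean of each gene. On WT arrays 1 to 3 it stood at -0.04, 0.02 and 0.04. The median over all genes lay between 0.00 and 0.05 on every array. In 9 members (31.0%) every KO array lay below every WT array, where 14.9% of all genes did so. In 4 members (13.8%) every KO array lay above, where 16% of all genes did. Together the groups did not overlap in 13 members (44.8%), against 30.9% of all genes. The 95% confidence interval kept 15 members within a 1.5-fold change either way and 24 members within a 2-fold change. The intervals of the others reached past these limits. The largest differences were those of Egln3 (0.484-fold) and Pfkfb3 (2.05-fold, not past the threshold).

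**Figure D1:**
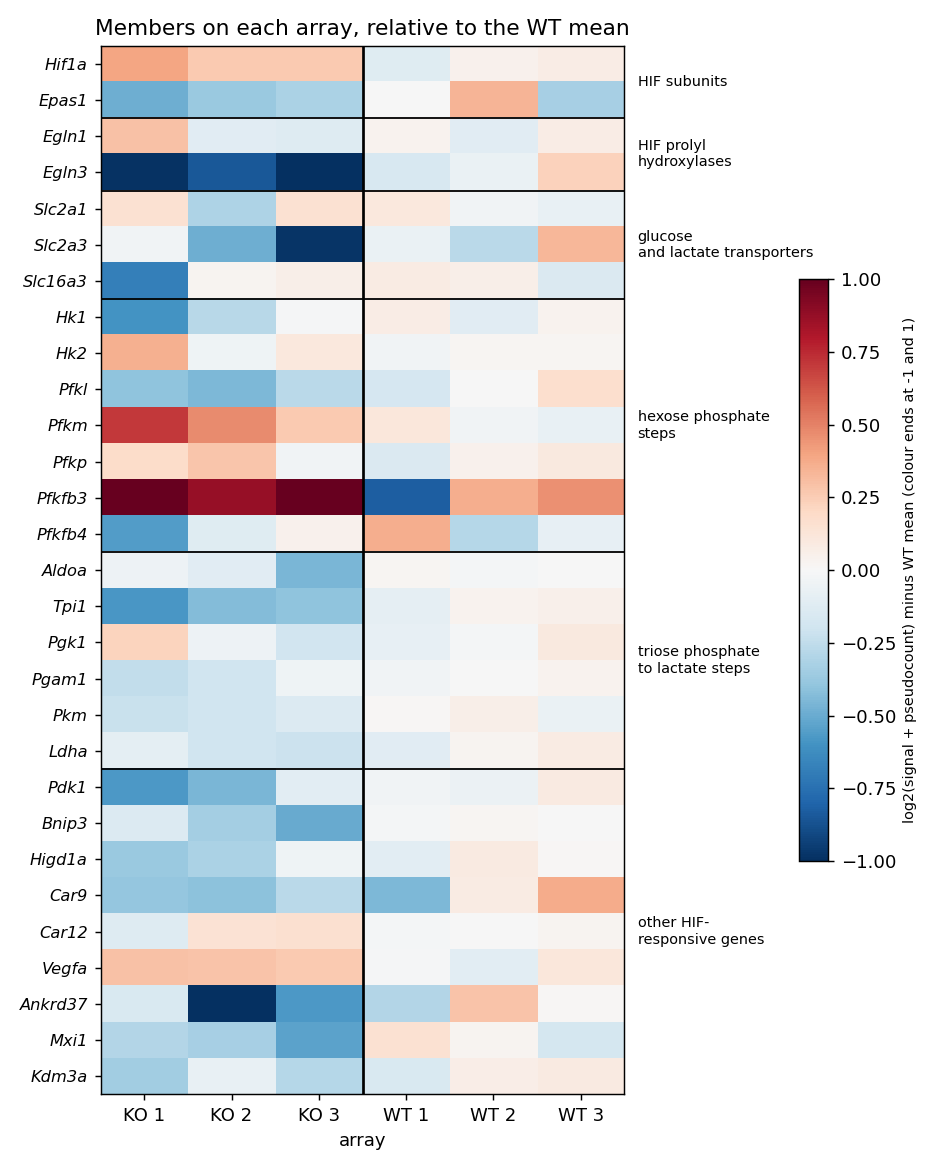
Each of the 29 tested members on the 3 KO and the 3 WT arrays, as log2(signal + pseudocount) minus the WT mean of that gene, grouped by role; the colour scale ends at -1 and 1. The rows of the triose phosphate steps and of the other HIF-responsive genes are mostly blue on the KO arrays, while Hif1a, Pfkm, Pfkfb3 and Vegfa are red on all 3.

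The targeted gene was lower in the KO cells, at a signal of 154 ± 48.9 in KO cells and 991 ± 89.8 in WT cells (SD, n = 3 each; log2 difference -2.67, adjusted p = 0.000189). Where its probe set sits relative to the deletion is not given in the sources used here. KO array 1 stood apart, with correlations of 0.940 to 0.950 with the other arrays, which reached 0.960 to 0.980 among themselves, and a median signal of 108 against 80.7 to 88.4 on the rest. Xist was high on KO array 2 and WT array 3 and Y-linked genes on the others, so each group mixed the sexes in the same ratio. Cell type markers were read from lists written with earlier results of these arrays known, so their counts describe the lists. Of all tested genes 4.64% rose and 4.65% fell. Of 15 tested mesothelial markers 14 fell, and their summed signal was 3107 to 4119 on KO arrays and 10283 to 14814 on WT arrays. Of 12 chondrocyte markers 5 rose and 0 fell, with sums of 165272 to 229440 on KO arrays and 115199 to 140930 on WT arrays. Among the 12 markers of fibroblasts and perichondrium, 5 rose and 4 fell, of 10 skeletal muscle markers 1 rose and 1 fell, of 7 macrophage markers 1 fell, and of 4 osteoblast markers 3 rose. With median centring the mesothelial count stayed at 14, while 2 chondrocyte and 0 osteoblast markers were higher, and 0 fibroblast markers were higher and 2 lower. Limma without its trend called 9 mesothelial markers and 0 of the chondrocyte, fibroblast and osteoblast lists. The endothelial markers were under the filter for 9 of 12 genes and the erythroid markers for 6 of 6. In a mixed culture fewer cells of a type and less RNA per cell cannot be told apart, and the part of the cell makeup in the members' differences was not tested.

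The windows just upstream of the members' transcription starts were searched for the core letters of the HIF element, ACGTG and GCGTG, on both strands, in the 250 bases before each start (RefSeq, GRCm38.p6). ACGTG was found for 18 of the 30 members with a window (60%), against 18.5% of 27025 genes. These 30 include Gpi1, Eno1 and Gapdh, and no window was at hand for Epas1, Slc2a3 and Bnip3l. GCGTG was found for 18 members (60%), against 30.9% of genes. By window, 46.8% of the 47 windows of members and 16.6% of all 32851 windows held ACGTG. The members were listed partly because they are known HIF targets, and their windows are richer in CpG, with a median of 14 against 6 in all windows, so the share describes the list. The 6-base palindrome CACGTG, which counts as overlapping ACGTG matches on both strands, was found for 5 members (16.7%), against 6.86% of genes. A match is a run of letters and no measured site.

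The windows of the called members with a single start are printed for what follows, with Pgk1, whose probe sets disagreed and whose upstream region is a classic source of a HIF element. They are given 5′ to 3′ along the gene, with the matches in capitals. They lie at chr6:124814159-124814408 (Tpi1, minus strand), chr12:54203875-54204124 (Egln3, minus strand), chr10:78009808-78010057 (Pfkl, minus strand), chr12:73907617-73907866 (Hif1a, plus strand) and chrX:106186850-106187099 (Pgk1, plus strand).
Tpi1: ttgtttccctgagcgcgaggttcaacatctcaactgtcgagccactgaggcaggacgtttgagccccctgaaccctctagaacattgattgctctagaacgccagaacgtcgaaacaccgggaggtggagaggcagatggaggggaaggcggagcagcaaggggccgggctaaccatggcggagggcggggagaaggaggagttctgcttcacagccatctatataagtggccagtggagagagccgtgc
Egln3: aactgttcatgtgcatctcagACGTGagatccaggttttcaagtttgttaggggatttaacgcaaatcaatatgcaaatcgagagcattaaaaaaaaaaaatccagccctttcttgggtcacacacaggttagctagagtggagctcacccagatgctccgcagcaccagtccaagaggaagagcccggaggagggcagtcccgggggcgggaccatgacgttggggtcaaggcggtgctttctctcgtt
Pfkl: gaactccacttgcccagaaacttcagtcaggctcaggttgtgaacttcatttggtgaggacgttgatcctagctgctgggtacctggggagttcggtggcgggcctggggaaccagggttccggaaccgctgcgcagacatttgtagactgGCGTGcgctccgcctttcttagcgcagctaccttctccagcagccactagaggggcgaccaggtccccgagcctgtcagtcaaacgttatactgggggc
Hif1a: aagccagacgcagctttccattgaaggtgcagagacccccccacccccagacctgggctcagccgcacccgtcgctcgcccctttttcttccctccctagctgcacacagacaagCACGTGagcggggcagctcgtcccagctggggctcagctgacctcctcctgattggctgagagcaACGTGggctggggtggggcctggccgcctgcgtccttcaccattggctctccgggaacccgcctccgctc
Pgk1: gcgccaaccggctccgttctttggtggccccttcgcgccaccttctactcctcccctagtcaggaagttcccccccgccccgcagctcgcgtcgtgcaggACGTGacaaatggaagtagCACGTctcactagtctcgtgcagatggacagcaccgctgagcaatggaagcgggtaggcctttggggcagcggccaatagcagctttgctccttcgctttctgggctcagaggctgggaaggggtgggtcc
Tpi1, with the lowest p of all members, held no match in this window. Egln3 held 1 ACGTG at 229 bases before the start. Pfkl held 1 GCGTG and no ACGTG. Hif1a held 3 ACGTG matches, at 135, 134 and 70 bases before its start, the first pair overlapping in a palindrome. Pgk1 held 2 on opposite strands, at 150 and 131 bases.

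Among the HIF subunits, Hif1a rose and Epas1 did not pass the test. Hif1a, the subunit that drives glycolytic genes in cartilage, had signals of 11360, 10377 and 10373 on the KO arrays. On the WT arrays it had 7951, 8930 and 9102. The groups did not overlap, and the difference was 0.31 on the log2 scale (SE 0.083, 1.24-fold, adjusted p = 0.0455). The threshold was just passed. With 1 array left out Hif1a stayed past the threshold only without KO array 3 (adjusted p = 0.0418), and without the others the adjusted p lay between 0.0670 (without KO array 1) and 0.178 (without WT array 1), with 0.0839 without KO array 2, 0.137 without WT array 2 and 0.0928 without WT array 3. All its probe sets pointed upward. Probe set 1448183_a_at read 1362, 1675 and 1481 in KO cells, and 1022, 1111 and 1124 in WT cells. Its difference was 0.47 and its adjusted p, over 23309 probe sets, 0.0262. The brightest one had 0.0573 by that wider adjustment. Probe set 1416035_at differed by 0.03 and the dim 1431981_at by 0.69, neither past the threshold.

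Epas1, the second HIF alpha subunit, did not separate the groups. Its signals were 246, 266 and 277 in KO cells and 345, 442 and 274 in WT cells. The KO arrays lay close together and overlapped the lowest WT array. The log2 difference was -0.39 with a 95% confidence interval of -0.81 to 0.03 (adjusted p = 0.228), so neither no change nor a fall of 1.5-fold was outside it.

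Of the prolyl hydroxylases 1 fell and 1 did not pass the test. Egln3, itself a strongly HIF-induced gene, read 83.0, 92.1 and 65.1 on the KO arrays and 153, 164 and 204 on the WT arrays. Every KO array lay well below every WT array, and the level in KO cells was 0.484 times that in WT cells (log2 difference -1.05, SE 0.27, adjusted p = 0.0381). It was the largest fall among the called members. The gene is dim, its second probe set was under the filter, and the call held with 1 array left out only without KO array 1 (adjusted p = 0.0375). It was lost without KO array 2 (0.0542), KO array 3 (0.0640), WT array 1 (0.103), WT array 2 (0.141) or WT array 3 (0.180). Its difference stayed between -1.15 and -0.90 under every alternative tried. Egln1, the main oxygen sensor of most cells, averaged 740 ± 131 in KO cells and 726 ± 49.8 in WT cells (log2 difference 0.02, 95% confidence interval -0.28 to 0.31). The difference between the 2 hydroxylases' changes was not tested.

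The transporters did not pass the test. Slc2a1, the main basal glucose transporter, averaged 3230 ± 565 in KO cells and 3203 ± 218 in WT cells, a log2 difference of 0.00 with an interval of -0.28 to 0.27. Slc2a3, a high-affinity glucose transporter, averaged 137 ± 46.8 in KO cells and 193 ± 43.8 in WT cells (-0.50, adjusted p = 0.317). Slc16a3, which exports lactate, averaged 136 ± 38.1 in KO cells and 153 ± 13.6 in WT cells (-0.20, adjusted p = 0.693). In all 3 the groups overlapped, and the intervals of the last pair reached past a 1.5-fold change.

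**Figure D2:**
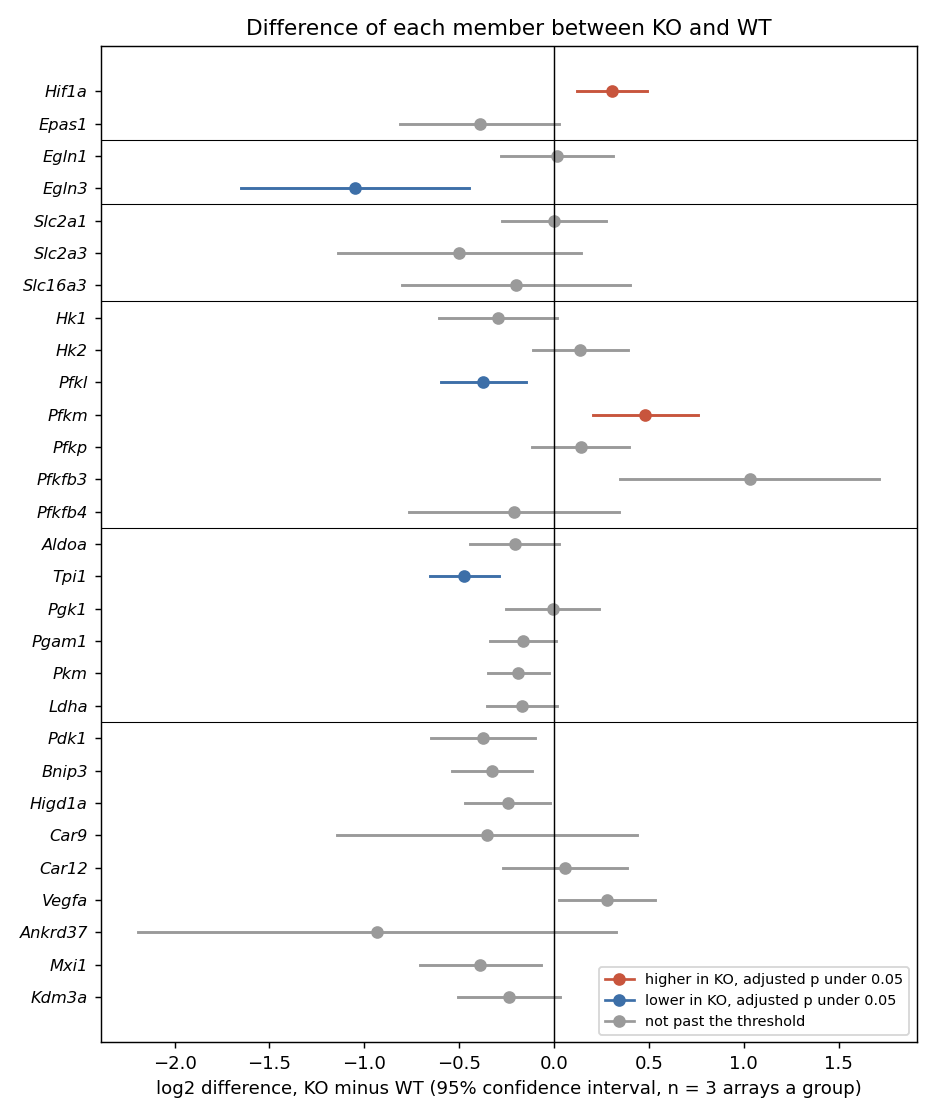
Log2 difference of each of the 29 members, KO minus WT, with its 95% confidence interval (3 arrays a group), in the order of roles; red and blue mark the members that passed the threshold upward and downward. Of the intervals, only those of the 12 members with an unadjusted p under 0.05 leave out 0, among them Tpi1, Egln3, Hif1a, Pfkm and Pfkfb3.

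At the hexose phosphate steps, 1 subunit of phosphofructokinase rose and 1 fell. Pfkm, the muscle-type subunit, read 1293, 1098 and 945 in KO cells, and 853, 768 and 747 in WT cells. The groups did not overlap (log2 difference 0.48, SE 0.12, 1.40-fold, adjusted p = 0.0375). Pfkl, the liver-type subunit, read 1457, 1411 and 1595 in KO cells, and 1712, 1921 and 2167 in WT cells. Here every KO array was lower (log2 difference -0.37, SE 0.10, adjusted p = 0.0483). Pfkp, the platelet-type subunit, averaged 925 ± 100 in KO cells and 837 ± 74.8 in WT cells and the groups overlapped (0.14, adjusted p = 0.487). The differences between the subunits' changes were not tested.

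Both calls were lost without most single arrays. Pfkm stayed past the threshold only without KO array 3 (adjusted p = 0.0130). It was lost without KO array 1 (0.0672), KO array 2 (0.0885), WT array 1 (0.0765), WT array 2 (0.140) or WT array 3 (0.136), where the difference remained between 0.37 and 0.54. Pfkl too was called only without KO array 3 (adjusted p = 0.0352), and was lost without KO array 1 (0.0732), KO array 2 (0.130), WT array 1 (0.0507), WT array 2 (0.155) or WT array 3 (0.189). The second Pfkl probe set, 1450269_a_at, had a difference of -0.33 and did not pass (adjusted p = 0.139 over probe sets). The third, 1453541_at, is dim and went the other way at 0.28. It averaged 90.0 ± 30.4 in KO cells and 70.7 ± 10.8 in WT cells. The mean of the 3 gave -0.14 (adjusted p = 0.544). Pfkm had 1 probe set.

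Pfkfb3 makes the allosteric activator of phosphofructokinase and showed the largest positive value of the members without passing the test. Its signals were 360, 330 and 423 in KO cells and 96.4, 230 and 245 in WT cells. Every KO array was above every WT array, but WT array 1 was far below WT arrays 2 and 3, and the adjusted p was 0.0639 (log2 difference 1.03, SE 0.31). Without WT array 1 the difference was 0.62. Its second probe set gave 0.68 (adjusted p = 0.165 over probe sets), and the mean of both passed at 0.86 (adjusted p = 0.0437). Pfkfb4, a related enzyme, averaged 170 ± 36.4 in KO cells and 198 ± 48.9 in WT cells (-0.21). The hexokinases, which trap glucose in the cell, overlapped between the groups. Hk1 averaged 956 ± 192 in KO cells and 1161 ± 79.2 in WT cells (-0.30, adjusted p = 0.219), and it passed only without KO array 3 (-0.44, adjusted p = 0.0469). Hk2, the HIF-responsive form, averaged 1023 ± 145 in KO cells and 923 ± 19.8 in WT cells (0.14, adjusted p = 0.489).

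**Figure D3:**
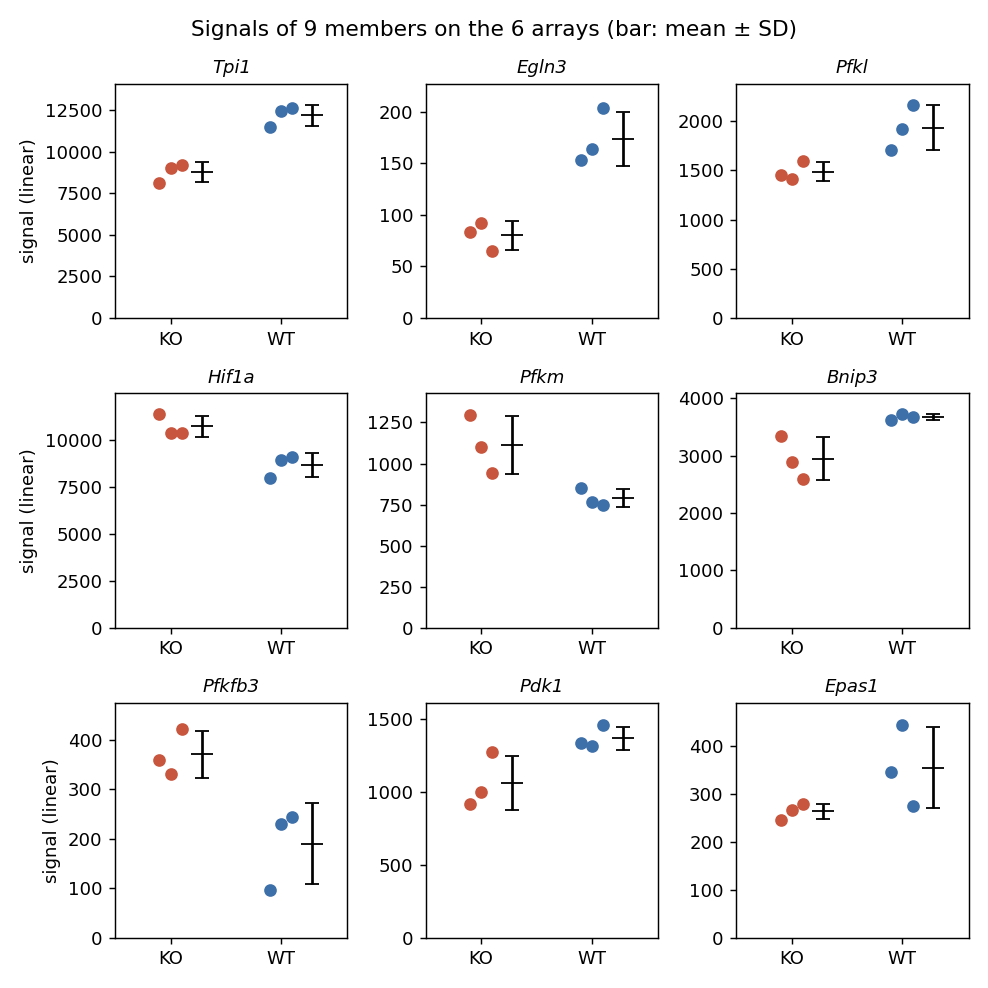
Linear signals of the 5 called members, of the 3 with the lowest p among the rest (Bnip3, Pfkfb3, Pdk1) and of Epas1, on the KO arrays (left) and the WT arrays (right), with mean ± SD (n = 3 each) and an axis from 0. Only in Epas1 do the groups overlap, and the low Pfkfb3 value of WT array 1 (96.4) stands apart from the other WT arrays.

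The steps from triose phosphate to lactate had a negative difference in all 6 tested members, though that of Pgk1 was only -0.01. Gapdh and Eno1 were not among the 6. In 4 of the 6, Tpi1, Aldoa, Pgam1 and Pkm, every KO array lay below every WT array, but only Tpi1 passed the test. Tpi1 interconverts the triose phosphates. It read 8112, 9022 and 9180 in KO cells, and 11445, 12440 and 12622 in WT cells. The level in KO cells was 0.721 times that in WT cells (log2 difference -0.47, SE 0.081, adjusted p = 0.00701). The gap between the groups was wider than the range within either of them.

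All 3 probe sets of Tpi1 passed the threshold downward. Probe set 1435659_a_at read 4240, 4825 and 4390 in KO cells, and 6900, 6873 and 6939 in WT cells (-0.62, adjusted p = 0.00227 over probe sets). Probe set 1452927_x_at read 7238, 8325 and 9018 in KO cells, and 11863, 12871 and 13358 in WT cells (-0.64, adjusted p = 0.00606). Its 3 probe sets are annotated to the same gene and are no replicates of each other. Which transcripts they bind is not given in the sources used here. With 1 array left out, the call was lost only without WT array 2 (-0.46, adjusted p = 0.0509).

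The neighbouring steps differed less, and none of them passed. Aldolase Aldoa read 13671, 13120 and 10293 in KO cells and 14360, 14005 and 14141 in WT cells (-0.21, adjusted p = 0.259), and its 5 probe sets ranged from -0.21 to 0.04. Pgam1, the phosphoglycerate mutase, averaged 7619 ± 571 in KO cells and 8513 ± 224 in WT cells (-0.16, adjusted p = 0.234), with its highest KO array just below its lowest WT array. Pyruvate kinase Pkm averaged 8149 ± 249 in KO cells and 9285 ± 401 in WT cells (-0.19, adjusted p = 0.141). Lactate dehydrogenase Ldha, which closes the pathway, read 16321, 15162 and 15028 in KO cells and 16139, 17765 and 18430 in WT cells (-0.17, adjusted p = 0.238). The intervals of Pgam1, Pkm and Ldha reached no lower than -0.35. Gapdh was described on its control probe sets without a test. Its groups overlapped on all 3 of them, with log2 differences of 0.10, 0.01 and 0.12 for the 3′, middle and 5′ probe sets, and the 3′ one averaged 26475 ± 3087 in KO cells and 24619 ± 1629 in WT cells.

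Pgk1, phosphoglycerate kinase, was read differently by its 3 probe sets. The brightest, 1438640_x_at, had 18915, 15657 and 14217 in KO cells and 15322, 16043 and 17401 in WT cells (-0.01, 95% confidence interval -0.25 to 0.24). The second, 1417864_at, had 14640, 13952 and 15764 in KO cells and 15827, 17846 and 17566 in WT cells (-0.21, adjusted p = 0.178 over probe sets). The third, 1439435_x_at, had 2387, 3744 and 7666 in KO cells and 14684, 15149 and 12689 in WT cells. Only this last one passed the threshold (log2 difference -1.79, SE 0.32, adjusted p = 0.0117 over probe sets). Its KO arrays were spread widely and all lay below the WT arrays. On 1417864_at every KO array was also below every WT array, by a smaller margin, and on the brightest probe set the groups overlapped. The gene would count as lower with the mean of its probe sets (-0.67, adjusted p = 0.00858). The files do not say which transcripts these probe sets bind. The suffix of the third marks probes that may bind several, and the brightest carries the same suffix. What they measure was not tested.

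**Figure D4:**
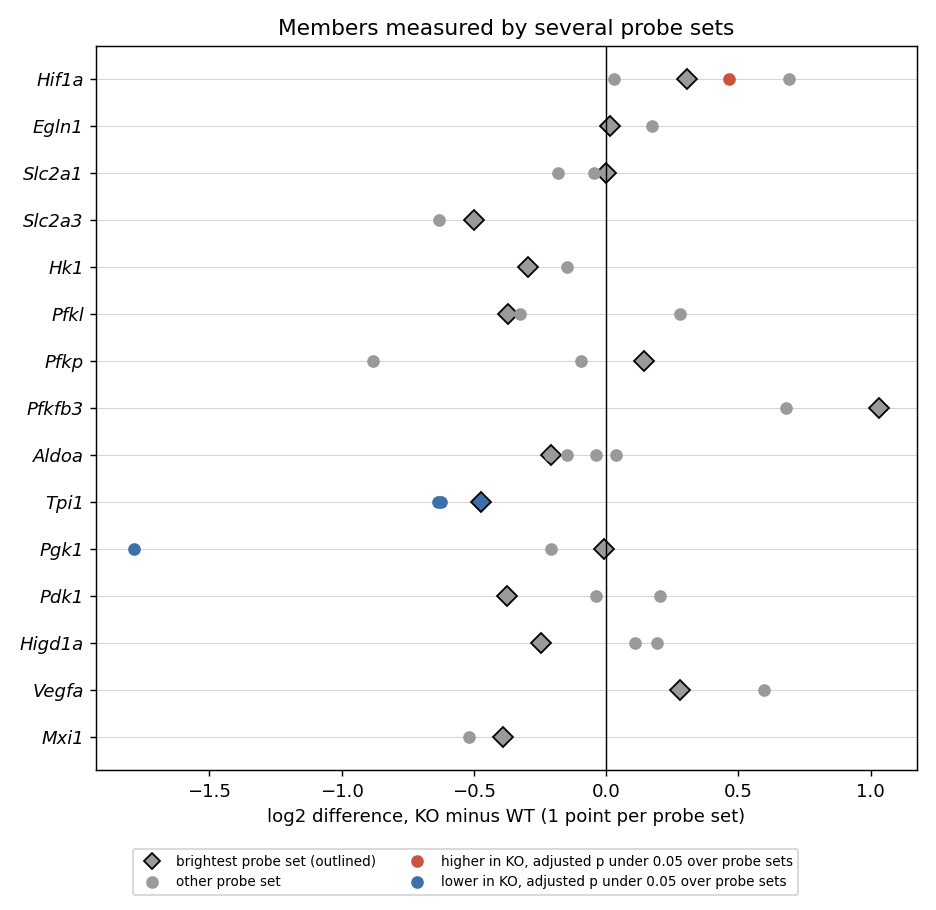
Log2 differences, KO minus WT, of every tested probe set of the 15 members with more than 1, with the brightest outlined and the probe sets past the threshold over 23309 probe sets in colour; 2 of the 5 Aldoa points nearly coincide. The 3 Tpi1 points lie together below 0, while 1 Pgk1 point lies at -1.79 and the other 2 at -0.21 and -0.01.

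Over all members, 56 probe sets were tested and 7 more were too dim. Of the 56, 37 were negative and 19 positive, with a median of -0.17, against 0.01 over all tested probe sets. By the adjustment over probe sets 1 rose and 5 fell, where 6.8% of all probe sets were called. Of the 15 members with several tested probe sets, 10 had all of them on 1 side of 0 and 5 did not (Aldoa, Higd1a, Pdk1, Pfkl and Pfkp).

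The remaining HIF-responsive genes did not pass the test, though 7 of the 9 had a negative value. Bnip3, a mitophagy receptor, came closest. It read 3337, 2895 and 2592 in KO cells, and 3628, 3722 and 3667 in WT cells, so the WT arrays were nearly equal and every KO array was below them (-0.33, SE 0.095, adjusted p = 0.0590). It passed without KO array 1 (-0.42, adjusted p = 0.00890). Pdk1, the kinase that closes pyruvate's way into the mitochondrion, read 918, 996 and 1273 in KO cells, and 1334, 1312 and 1459 in WT cells (-0.38, SE 0.12, adjusted p = 0.0870). The groups were apart by a small margin, and it passed without KO array 3 (-0.51, adjusted p = 0.0117). Its other tested probe sets gave -0.04 and 0.20.

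The rest had adjusted p-values from 0.123 upward. Mxi1, a Myc antagonist, averaged 343 ± 30.4 in KO cells and 452 ± 52.1 in WT cells (-0.39, adjusted p = 0.123), with groups that did not overlap. They did on its second probe set (-0.52, adjusted p = 0.352 over probe sets). Vegfa, the angiogenic growth factor, averaged 575 ± 6.54 in KO cells and 473 ± 36.7 in WT cells, every KO array above every WT array (0.28, adjusted p = 0.157). On its second probe set the groups overlapped (0.60, adjusted p = 0.131 over probe sets). Higd1a, a mitochondrial hypoxia protein, averaged 8594 ± 1096 in KO cells and 10147 ± 689 in WT cells (-0.24, adjusted p = 0.161) and passed without KO array 3 (-0.35, adjusted p = 0.0278). Its other probe sets gave 0.11 and 0.19, on the other side of 0. The histone demethylase Kdm3a averaged 587 ± 60.1 in KO cells and 692 ± 63.8 in WT cells (-0.24, adjusted p = 0.261). The carbonic anhydrases, which handle the acid that glycolysis makes, did not pass the test. Car12 averaged 324 ± 36.2 in KO cells and 310 ± 4.81 in WT cells (0.06). Car9 averaged 68.7 ± 3.93 in KO cells and 92.5 ± 27.3 in WT cells (-0.35). Ankrd37, an ankyrin repeat protein, averaged 42.9 ± 28.5 in KO cells and 77.5 ± 16.9 in WT cells, and its interval of -2.19 to 0.32 left its direction undetermined.

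The number of called members rested on single arrays. It was 0 higher and 3 lower without KO array 1, 0 and 1 without KO array 2, and 2 and 5 without KO array 3. It was 0 and 1 without WT array 1, 0 and 0 without WT array 2, and 0 and 1 without WT array 3. Over all genes the calls also moved, between 224 and 778 higher and between 199 and 809 lower. The alternatives were also counted for each called member, leaving aside the other probe sets. Tpi1 passed in 14 of 18, Pfkm in 9 of 19 and Egln3 in 9 of 18. Hif1a passed in 6 of 19 and Pfkl in 5 of 19. Each count includes the methods' t-test at an unadjusted p under 0.05, which every called member passed. The median of the members stayed between -0.26 and -0.17 with any 1 array left out.

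The genes around the pathway were then read from 7 lists. Among 22 tested genes of further glycolytic isoforms, glycogen and gluconeogenesis, 3 rose and 0 fell (13.6%, against 9.29% of all genes), with a median of 0.00. The 3 were Fbp1, the fructose bisphosphatase of gluconeogenesis, Pck2, the mitochondrial carboxykinase that makes phosphoenolpyruvate, and Adpgk, an ADP-dependent glucokinase. Fbp1 read 287, 165 and 179 in KO cells and 67.3, 84.2 and 61.0 in WT cells (1.44, adjusted p = 0.0153). Pck2 read 6455, 7132 and 6712 in KO cells and 3911, 4397 and 4682 in WT cells (0.65, adjusted p = 0.00236). Adpgk rose by 0.60 (adjusted p = 0.0241). The other 19 genes did not pass. At limma's unadjusted p under 0.05, 4 genes of the list were higher and 5 lower, where 25.1% of all genes were under that p. The count of genes that rose was 1 without WT array 1 and without WT array 3, and without KO array 3 it was 3 higher and 3 lower. Median centring gave 1 higher and 0 lower, limma without its trend 3 and 0, and the methods' t-test after adjustment 0 and 0.

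Of 19 tested genes of pyruvate and lactate handling 0 passed in limma and 0 in the methods' t-test after adjustment. At limma's unadjusted p under 0.05, 4 were higher and 2 lower, where 25.1% of all genes were under that p, and the median was -0.01. With 1 array left out 0 passed, except 1 lower without KO array 1 and 1 higher without KO array 3. The lowest p were those of Ldhb, the heart-type lactate dehydrogenase (1182 ± 158 in KO cells and 1516 ± 16.7 in WT cells, -0.37, adjusted p = 0.0538), and of Bsg, the partner of the lactate transporters (17104 ± 1211 in KO cells and 14180 ± 1488 in WT cells, 0.27, adjusted p = 0.108). Of 8 pentose phosphate genes 1 rose (12.5%, against 9.29% of all genes), with a median of -0.05. It was Prps1, which makes the ribose donor for nucleotides (0.32, adjusted p = 0.0370). With 1 array left out 0 genes of this list were called, except 1 higher and 1 lower without KO array 3. Median centring, limma without its trend and the methods' t-test after adjustment each called 0 of them. Of 19 genes of the tricarboxylic acid cycle 2 rose and 0 fell (10.5%, against 9.29% of all genes), with a median of 0.01. They were Ogdh, a subunit of the oxoglutarate dehydrogenase, at 1849 ± 124 in KO cells and 1178 ± 75.9 in WT cells (0.65, adjusted p = 0.00299), and Idh2, the mitochondrial isocitrate dehydrogenase (0.38, adjusted p = 0.0430). Only 1 of the cycle genes was called without each array but KO array 3, where 3 were. Median centring and the methods' t-test after adjustment called 0 of the cycle genes, and limma without its trend called 1. Of 26 respiratory chain genes 0 passed in limma and 0 in the methods' t-test after adjustment. At limma's unadjusted p under 0.05, 5 were higher and 0 lower, where 25.1% of all genes were under that p, and the median was 0.07. With 1 array left out 0 passed, except 2 higher without KO array 3 and 1 higher without WT array 1. The lowest p were those of Cycs, cytochrome c (0.32, adjusted p = 0.0763), and Uqcrb, a subunit of the bc complex (0.42, adjusted p = 0.111).

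The HIF machinery list held the partners, degraders and coactivators of the subunits. Of its 19 tested genes 1 rose and 0 fell (5.26%, against 9.29% of all genes), with a median of -0.12. It was Eloc, elongin C of the ligase that degrades the alpha subunit (9866 ± 1214 in KO cells and 7627 ± 474 in WT cells, 0.37, adjusted p = 0.0466). At limma's unadjusted p under 0.05, 1 gene was higher and 4 lower, where 25.1% of all genes were under that p. With 1 array left out 0 genes were called, except 1 higher and 3 lower without KO array 3. Median centring, limma without its trend and the methods' t-test after adjustment each called 0 genes of this list.

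Among 37 further hypoxia targets, 6 rose and 4 fell (27.0%, against 9.29% of all genes), and the median was -0.03. With median centring 3 were higher and 0 lower, and limma without its trend and the methods' t-test after adjustment each gave 1 higher and 0 lower. Angptl4, an inhibitor of lipoprotein lipase, read 1345, 1322 and 1318 in KO cells and 478, 509 and 532 in WT cells (1.38, adjusted p = 0.000117). Ndrg1, a stress-responsive gene, read 1049, 1623 and 2126 in KO cells and 2886, 2772 and 2839 in WT cells (-0.88, adjusted p = 0.0235). The secreted stanniocalcin Stc2 rose by 0.82 (adjusted p = 0.00951) and the lipid droplet coat protein Plin2 by 0.80 (adjusted p = 0.00412). Angptl4 and Plin2 are also genes of lipid handling, and of 5 tested adipocyte markers 1 rose, with a median difference of 0.14. Adipoq, Cidec and Lep, 3 of the 8 adipocyte markers, were under the filter. The summed signal of all 8 was 7967 to 9003 on KO arrays and 3926 to 4720 on WT arrays, a linear sum weighted toward bright genes. The part of adipocytes in these values was not tested. Without WT array 1, 2 or 3 the list held 3, 3 and 5 genes higher and 1, 0 and 0 lower, and without KO array 3 it held 7 and 9.

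**Figure D5:**
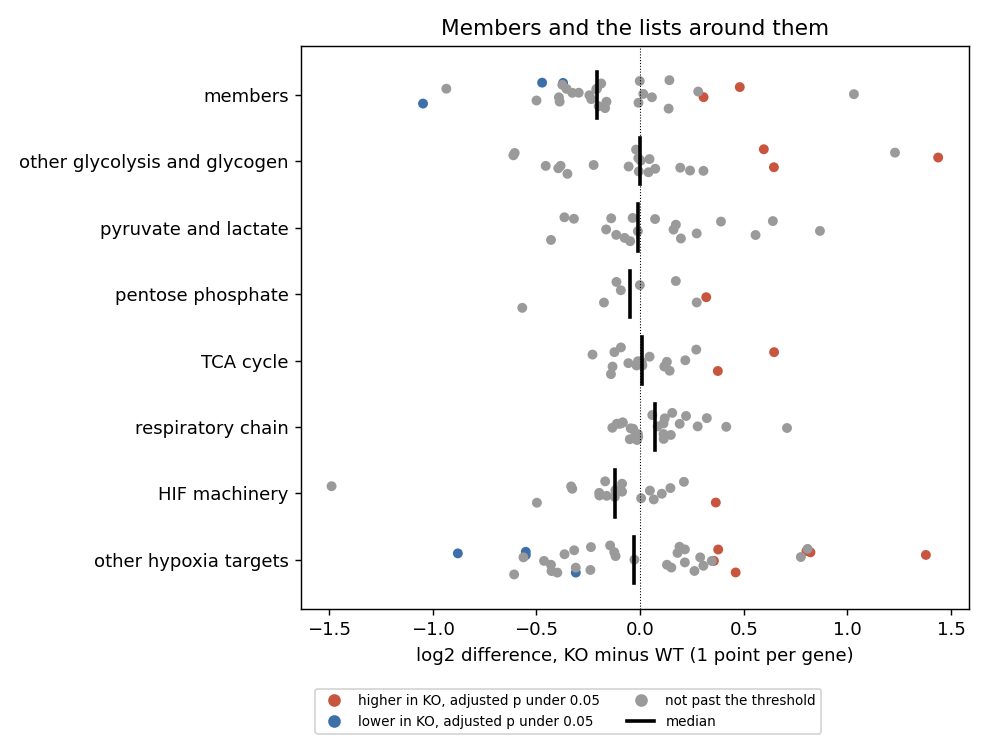
Log2 difference, KO minus WT, of each tested gene in the member group (29 genes, top) and in the 7 lists around it, with the list medians as bars and the genes past the threshold in colour. The members' median (-0.21) is the lowest of the 8, and the further hypoxia targets hold genes far out on both sides, from Ndrg1 (-0.88) to Angptl4 (1.38).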

How the data were processed

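Total RNA of primary rib chondrocytes was hybridised by the authors to Affymetrix Mouse Genome 430 2.0 arrays, 1 RNA sample per array. The deposited values are linear intensities, 1 for every probe set on every array. The submitters' processing notes name MAS5 and the paper's methods name gcRMA; each array has the same trimmed mean (500.003), and the values were used as deposited. The MAS5 version is not given in the sources used here. The number of arrays limits the precision.

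Of 45101 probe sets, 34958 carry 1 gene symbol. The 932 with several, the 9211 with none and the 64 Affymetrix controls were left out. Signals were taken as log2(signal + 7.96), the pseudocount being the 10th percentile, which understates the change of dim genes. A probe set had to reach the 40th percentile (log2 mean of 5.80), and the brightest that did stood for each of 12726 genes. The groups were fitted, KO minus WT and without covariates, in limma 3.58.1 under R 4.3.3 (lmFit, and eBayes using a mean-variance trend). Adjusted p-values follow Benjamini and Hochberg over all tested genes, or over all 23309 probe sets where stated, at a threshold of 0.05. SDs of signals are over 3 arrays.

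Every member is named. Values on each array are given for called members, the 3 others with the lowest p, Hif1a, Epas1, and members whose probe sets were called differently; Aldoa and Ldha are shown in addition, chosen after their values were seen. From each surrounding list up to 4 called genes with the largest changes are named, or up to 2 with the lowest p. The members and lists were chosen with earlier results of these data known. The comparison was also run on simulated arrays, with independent normal noise and the SDs shuffled between genes. These hold no outlying array and no mean-variance trend, so they cannot show how the comparison behaves with either. The alternatives were 2 filters, 2 pseudocounts, median centring or quantile normalization, averaging all probe sets of a gene, dropping probe sets with the suffixes _x, _s and _a (which can bind more than 1 transcript), a replicate block, sex as a covariate, each array left out, other probe sets, limma without a trend, and the methods' t-test, which the paper names in general and not for the arrays. Upstream sequences are from RefSeq.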

Additional observations from a re-analysis of the deposited data

How the results depend on the processing

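The counts of called members depended on the settings more than their shift did. With 2 members higher and 3 lower as reported, there were 1 and 1 without a filter, 1 and 1 without probe sets of the suffixes _x, _s and _a, 0 and 0 with median centring, 0 and 1 with limma without its trend, and 0 and 0 with the methods' t-test after adjustment. Unadjusted, the methods' t-test gave 3 higher and 6 lower. Quantile normalization gave 1 higher, and sex as a covariate gave 0 higher, each with 2 lower. The labels do not say whether the replicate numbers pair the arrays. Same-numbered arrays deviated from their group means with correlations of 0.03, 0.02 and -0.07, and differently numbered ones with -0.07 to 0.05. With 3 arrays a group, such correlations cannot show whether arrays were paired. The fit with a replicate block gave 1 higher and 1 lower. With each array left out in turn the counts ranged from 0 to 2 higher, from 0 to 5 lower and the median from -0.26 to -0.17. The members without overlap then numbered 14 to 18 (48.3% to 62.1%), against 37.3% to 45.7% of all genes.

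The median of the members (-0.21) moved to -0.30 with median centring, where that of all genes moved to -0.08, and to -0.12 without probe sets of the suffixes _x, _s and _a, where 8 of the 22 members left did not overlap (36.4%, against 29.9% of all genes). That setting left no value for 7 members, Tpi1 among them, and turned Pfkl to 0.28, the value of the only probe set it kept, which also reverses Pfkl among the other probe sets. The filter at the 60th percentile, both pseudocounts and averaging all probe sets of a gene gave 2 higher and 3 lower. These were not always the same members. Averaging lost Hif1a and Pfkl and called Pfkfb3 and Pgk1, and the 60th percentile left out Egln3 and called Bnip3 (-0.33, adjusted p = 0.0498 in limma). The cause of the other moves was not tested. Over all genes, 590 were higher and 592 lower as reported, against 345 and 350 with the replicate block, 122 and 142 without the trend, and 1344 and 1272 unadjusted or 41 and 44 adjusted with the methods' t-test. With 3 arrays a group, a difference that did not pass is not shown to be absent.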
